A study of Mus musculus with 19 samples.

Results

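Fos, Fosb, Junb, Egr1, Egr2, Egr4, Npas4, Nr4a1, Arc and Dusp1 are immediate early genes, chosen here by name for their induction by neuronal activity and found by gene identifier in the expression tables of primary somatosensory cortex (S1). They are 10 of the 24130 Ensembl genes listed in at least 1 of 7 S1 libraries, and all 10 were listed in every library. The libraries hold poly(A) RNA of male mice aged 56 days, C57BL/6 in the labels and C57BL/6J in the study's methods, untreated as far as the labels state, whose S1 was cut by hand into 6 laminar segments. Segment A was mostly layers 1 to 3, B mostly layer 4, C mostly upper layer 5, D mostly lower layer 5, E mostly layer 6 and F mostly layer 6b. A, C, D, E and F each pooled RNA of 8 mice and have 1 library, while B1 and B2 are the 2 libraries of layer 4, each from the 4 mice of 1 litter. The 7 libraries come from the same 8 mice, and the 12 samples of dorsal and lateral cortex in the series were not analysed here. Segments cut by hand hold parts of neighbouring layers and processes of cells whose bodies lie elsewhere.

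Immediate early genes are transcribed within minutes of a stimulus, without new protein synthesis, when calcium entry and kinase signalling act on factors already bound at their promoters, among them CREB, SRF and MEF2. Most of them encode transcription factors that switch on a second, delayed set of genes, while a few encode effectors that act at the synapse or shut the signal off. In cortex their transcripts are widely used as markers of recently active neurons, and in unstimulated animals they persist at levels set by ongoing experience and by handling.

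Promoters are shown for 4 members with 1 annotated start site each, whose intervals did not overlap between the 2 litters of layer 4. The core of the cAMP response element, bound by CREB, stands in each but was not a condition of the choice. The promoters were read from the RefSeq promoter table, build GRCm38.p6, which holds 12 start sites for 8 of the 10 members and none for Arc or Egr1. Each line gives the bases that end just before the start site, 5′ to 3′ on the strand of the gene, in lower case with every TGACG, or CGTCA on the other strand, in capitals. Dusp1 is shown without the last 47 bases, which lie in an annotated exon, and Npas4 is left out because its window lies in one as well.
Junb, chr8:84978749-84978898, minus strand: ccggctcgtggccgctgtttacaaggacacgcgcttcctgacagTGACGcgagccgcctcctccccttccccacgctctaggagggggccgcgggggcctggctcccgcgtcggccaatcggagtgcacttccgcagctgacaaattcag
Egr4, chr6:85513590-85513739, minus strand: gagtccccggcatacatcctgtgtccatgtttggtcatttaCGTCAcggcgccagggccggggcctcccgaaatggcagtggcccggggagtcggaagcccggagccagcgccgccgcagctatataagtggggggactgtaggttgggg
Nr4a1, chr15:101266696-101266845, plus strand: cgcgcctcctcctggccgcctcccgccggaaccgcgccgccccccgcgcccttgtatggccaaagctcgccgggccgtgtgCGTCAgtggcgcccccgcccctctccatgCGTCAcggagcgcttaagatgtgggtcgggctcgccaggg
Dusp1, chr17:26508520-26508622, minus strand: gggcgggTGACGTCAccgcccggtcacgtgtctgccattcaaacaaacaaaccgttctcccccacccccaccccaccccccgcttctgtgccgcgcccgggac

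In the 150 bases before the start site, the core TGACG on either strand was found for 7 of the 8 members with a start site, in 9 of their 12 windows, against 13.3% of all 32851 windows of the table. The member without it was Npas4. The full element TGACGTCA, which holds the core on both strands, was found in 1 member window, that of Dusp1, and in 1.36% of all windows. GGGCGG, the core of GC boxes, on either strand was found for 5 of the 8 members, in 6 of their 12 windows, and in 28.6% of all windows. A CArG box, the site of SRF, was found in 4 of the 5 windows of Egr2, some of which overlap, in none of the other members with a start site, and in 0.916% of all windows. TATAAA on either strand was found in the window of Fos alone among the members, against 7.57% of all windows. These are matches of letters, not measured binding.

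Expression is given in FPKM, fragments per kilobase of exon model scaled to the number of mapped fragments, which the authors deposited for each gene with a 95% confidence interval. The interval holds the error of the estimate within a library and no variation between mice, so nonoverlap of intervals compares libraries. With 1 library per segment there is no replicate check outside layer 4. Estimated depth ran from 31.4 M mapped fragments in A to 75.3 M in B2. A gene was called classifiable where its widest interval over the 7 libraries spanned at most 50% of its mean FPKM. This held for 11409 genes and for 8 members, while Fos reached 67.6% and Egr2 172%. Of the 11409 genes, 387 were at 0 FPKM in at least 1 library, and none of the members was. Pan-neuronal genes were present in all segments, with the sum of 10 such genes lowest in A at 2468 FPKM and highest in D at 4811. The sum of 12 oligodendrocyte genes ran from 344 FPKM in A to 13002 in F, and in A the sums of 5 blood genes (939 FPKM) and 9 meningeal genes (1771 FPKM) stood above their other libraries, at most 149 and 277 FPKM, with Ptgds alone at 1733 FPKM in A. In such bulk samples, fewer cells of a type and less RNA per cell cannot be told apart, and the part of these cells in the results below was not tested.

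Between layer segments, the members did not share 1 pattern. Fos, Arc, Egr1 and Dusp1 were lowest in A, Fos by its gene value but not by its main transcript. As deposited and outside layer 4, Egr4 fell with depth. By the gene values as deposited, Junb, Npas4 and Nr4a1 differed more between the 2 litters of layer 4 than among A, C, D, E and F. After correction for GC content Junb no longer did. The share of all classifiable genes that did so was not computed, so this is not read as a trait of the members. Egr1 was the highest of the 10 in each library and Egr2 the lowest. The plot of FPKM by library gives each value with its interval.

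**Figure D1:**
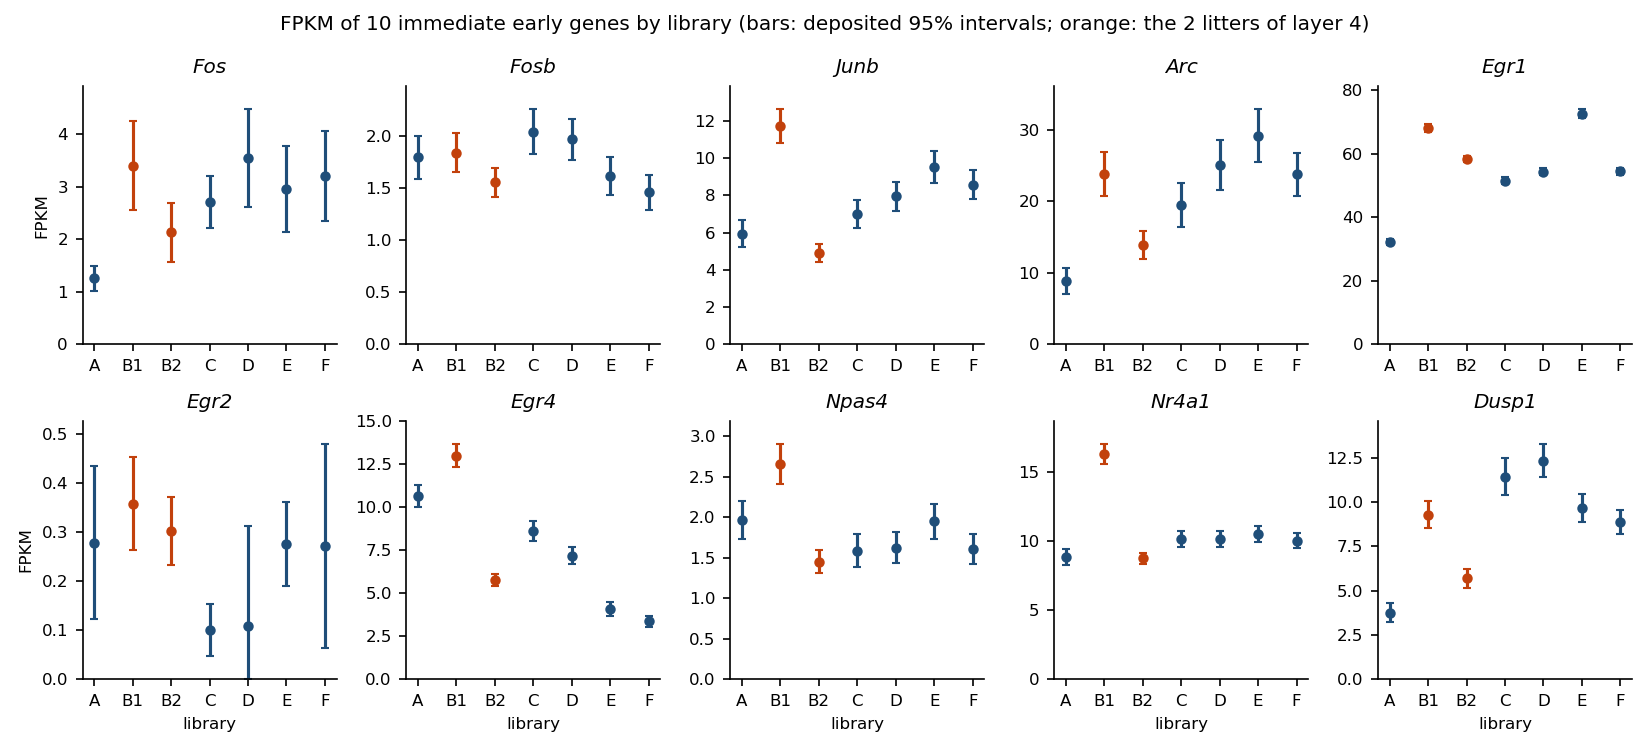
FPKM (y axis, linear from 0, a scale of its own for each gene) of the 10 genes in the 7 S1 libraries (x axis, A superficial to F deep). Points are the deposited values, bars their 95% intervals, and orange marks the 2 libraries of layer 4, where B1 stands above B2 in every panel.

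Egr1, Egr2 and Egr4 encode zinc finger transcription factors of 1 family, which bind GC-rich sites in the promoters of later genes. Egr1 (ENSMUSG00000038418) measured 32.3 FPKM in A, 68.3 and 58.5 in B1 and B2, 51.6 and 54.3 in C and D, and 72.6 and 54.5 in E and F. It was highest in layer 6 and lowest in layers 1 to 3, 2.25-fold apart, and its mean in layer 4 was 63.4 ± 6.91 FPKM (SD, n = 2). Under the median of ratios, and with mitochondrial genes left out of the scale, B1 rather than E was its highest library. With 3181 to 13822 estimated fragments per library its intervals were the narrowest of the members relative to mean FPKM, the widest spanning 4.82% of it. Of the 6 pairs of neighbours in the order of its levels, only D and F overlapped, at 53.2 to 55.5 and 53.4 to 55.7 FPKM. The classifiable genes with the most similar pattern by Pearson correlation of log2(FPKM + 0.1) over the 7 libraries were ENSMUSG00000074045, for which the reference gave no symbol (r = 0.991), and Rasl11b (r = 0.989). All such values here are descriptions over 7 libraries from the same mice.

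Egr4 (ENSMUSG00000071341, chromosome 6, 85461125 to 85463583, mm9) measured 10.7 FPKM in A, 13 and 5.76 in B1 and B2, 8.60 and 7.18 in C and D, and 4.08 and 3.35 in E and F. As deposited, its values outside layer 4 were lower at each step from A to F, 3.18-fold in all, and no neighbours in the order of its levels overlapped. After correction for GC content, which is highest in Egr4 among the members, C was its highest library at 9.72 FPKM, the interval of A (8.04 to 9.11 FPKM) overlapped those of B1, C and D, and A was 2.22-fold above F. In the deposited values B1 was the highest of the 7 libraries, while B2 lay between D and E. By the sum of deposited values over the 6 segments, with layer 4 as the mean of its libraries, A held 24.6% of the expression of Egr4 and F 7.75%. Its share in A was the largest among the 10 members. Zfp385a (r = 0.986) and Pard6a (r = 0.981) had the most similar patterns.

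Egr2 (ENSMUSG00000037868, chromosome 10, 67000617 to 67004936 in B1, mm9) was measured at 0.278 FPKM in A, 0.358 and 0.302 in B1 and B2, 0.0993 and 0.108 in C and D, and 0.276 and 0.271 in E and F. C and D were the lowest, with 12 and 8 estimated fragments, and the interval of D, 0 to 0.312 FPKM, overlapped that of every other library. The interval of C, 0.0462 to 0.152 FPKM, lay below those of B1, B2 and E. At this depth differences of Egr2 other than these were not detectable. The 2 classifiable genes with the most similar pattern, ENSMUSG00000080229 and Paxbp1, were both at 0 FPKM in C and D, and such zeros can be failed estimates.

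Fos and Fosb encode partners, and Junb encodes a Jun protein, of the dimeric transcription factor AP-1. Fos (ENSMUSG00000021250, chromosome 12, 86814840 to 86818223, mm9) measured 1.25 FPKM in A, 3.41 and 2.13 in B1 and B2, 2.71 and 3.55 in C and D, and 2.96 and 3.21 in E and F. Its interval in A, 1.02 to 1.48 FPKM, lay below those of the other 6 libraries, and 5 of the 6 neighbours in the order of its levels overlapped. This gap depended on the transcripts counted. Tables of A listed 1 Fos transcript and those of the other libraries 2 or 3, and the main transcript alone (ENSMUST00000021674) measured 1.25 FPKM in A and 1.23 in B2, with overlapping intervals. That transcript was highest in C, at 2.32 FPKM, and measured 2.10 in B1. Tmem9 (r = 0.992) and Adprh (r = 0.990) had the patterns most similar to the gene.

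Fosb (ENSMUSG00000003545, chromosome 7, 19888070 to 19895394, mm9) had the flattest profile, at 1.79 FPKM in A, 1.84 and 1.55 in B1 and B2, 2.04 and 1.96 in C and D, and 1.61 and 1.46 in E and F. Its highest and lowest libraries, C and F, were 1.40-fold apart and all neighbours in the order overlapped. A single Fosb transcript was listed, so the truncated isoform that builds up with repeated stimulation could not be told apart from the full-length one. Fsd1 (r = 0.951) and Inpp5j (r = 0.930) had the most similar patterns.

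Junb (ENSMUSG00000052837, chromosome 8, 87501294 to 87502328, mm9) measured 5.95 FPKM in A, 11.7 and 4.90 in B1 and B2, 7.01 and 7.94 in C and D, and 9.52 and 8.58 in E and F. The 2 libraries of layer 4 thus were its highest and its lowest, 2.39-fold apart, while A, C, D, E and F spanned 1.60-fold. After GC correction this order turned, with B1 1.54-fold above B2 and a span of 2.005-fold from A, then the lowest library, to E, then the highest. The Ensembl model of Junb was 1035 bases long, against a de novo locus of 1794 bases in B1 and in B2, so its FPKM rest on part of the transcribed stretch. Wdr34 (r = 0.989) and ENSMUSG00000072629 (r = 0.981), without a symbol, had the most similar patterns.

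Npas4 encodes a transcription factor that is induced by calcium entry in neurons and promotes inhibitory synapses, and Nr4a1 an orphan nuclear receptor. Npas4 (ENSMUSG00000045903, chromosome 19, 4984355 to 4989971, mm9) measured 1.96 FPKM in A, 2.65 and 1.45 in B1 and B2, 1.59 and 1.62 in C and D, and 1.95 and 1.61 in E and F. Nr4a1 (ENSMUSG00000023034, chromosome 15, 101097284 to 101105223, mm9) measured 8.86 FPKM in A, 16.3 and 8.76 in B1 and B2, 10.1 and 10.1 in C and D, and 10.54 and 10.03 in E and F. For both genes B1 was the highest and B2 the lowest of the 7 libraries, 1.83-fold apart for Npas4 and 1.86-fold for Nr4a1. Over A, C, D, E and F the spans were 1.24-fold and 1.19-fold, so that by the gene values as deposited segments differed less than litters. For Nr4a1 this held under both rescalings and after GC correction (1.51-fold between litters and 1.21-fold over segments), while for Npas4 the litters (1.82-fold) and segments (1.83-fold) were level under the median of ratios. The de novo loci of both genes, given below, ranked the libraries otherwise. Rai1 (r = 0.986) and Capn15 (r = 0.979) were most similar in pattern to Npas4, and Tnrc18 (r = 0.991) and Zmiz2 (r = 0.990) to Nr4a1.

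Arc encodes a cytoskeletal protein of active synapses, and Dusp1 a phosphatase that switches off MAP kinases. Arc (ENSMUSG00000022602, chromosome 15, 74499513 to 74503000, mm9) measured 8.83 FPKM in A, 23.8 and 13.9 in B1 and B2, 19.5 and 25.1 in C and D, and 29.1 and 23.8 in E and F. It was lowest in A and highest in E, 3.30-fold apart, and the interval of A, 7.01 to 10.7 FPKM, lay below all others. Its level in layer 4 was 18.8 ± 7.01 FPKM (SD, n = 2). Pcdh10 (r = 0.997) and Lzts1 (r = 0.995) had the most similar patterns.

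Dusp1 (ENSMUSG00000024190, chromosome 17, 26642535 to 26645464, mm9) measured 3.76 FPKM in A, 9.29 and 5.69 in B1 and B2, 11.4 and 12.3 in C and D, and 9.67 and 8.87 in E and F. It peaked in layer 5, where C and D overlapped, and A was 3.28-fold below D and apart from every other library. In layer 4 it measured 7.49 ± 2.54 FPKM (SD, n = 2). Kcnn1 (r = 0.992) and ENSMUSG00000073272 (r = 0.991), without a symbol, had the most similar patterns.

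**Figure D2:**
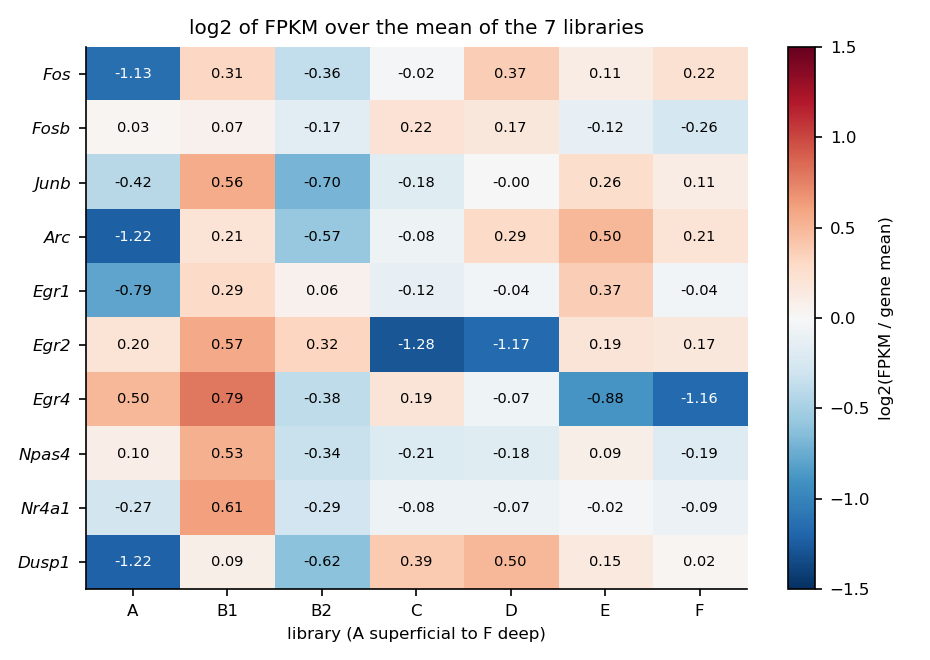
Log2 of the FPKM of each gene (rows) over its mean across the 7 libraries (columns), with red above and blue below the mean. A is at -1.22 for Arc and Dusp1 and -1.13 for Fos, Egr4 runs from 0.50 in A to -1.16 in F, and B1 is above 0 for all 10 genes.

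The map of log2 levels relative to each gene's mean shows which members moved alike. Over the 45 pairs of members, the Pearson correlation of log2(FPKM + 0.1) had a median of 0.27 and ran from -0.67 to 0.95, with 33 pairs above 0. By the gene values Fos, Arc and Dusp1 were the closest, at 0.95 for Fos and Arc, 0.92 for Fos and Dusp1 and 0.90 for Arc and Dusp1. The low gene value of Fos in A depended on the transcripts counted. Its main transcript alone measured 1.25 FPKM in A and 1.23 in B2, and correlations of that transcript were not computed. Fosb and Egr4 correlated at 0.74, Npas4 and Nr4a1 at 0.82, and Fosb and Egr2 at -0.67. These 7 points share mice and include the pair B1 and B2, so the values are descriptions only.

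Whether the levels followed cortical depth was tested by the limma moderated F-test of a linear and a quadratic term of segment position on log2(FPKM + 0.1), with Benjamini-Hochberg adjustment over all 11409 classifiable genes. With a threshold of 0.05 on adjusted p, 43.5% of them were called, and 3 of the 8 classifiable members were. Changes are given as the fitted difference from A to F on that log2 scale, which had a median of 0.47 over all classifiable genes and 0.23 over these 8 members. Each p-value belongs to both terms together, so a call can rest on a curved profile and does not test that difference. It rests on the scatter of the 7 libraries around the fitted curve, with B1 and B2 entered separately. These are pools of the same 8 mice, so it does not measure variation between mice. The fitted difference was 1.05 for Dusp1 (adjusted p = 0.0157), 1.28 for Arc (adjusted p = 0.0266) and -1.62 for Egr4 (adjusted p = 0.0385). The other 5 did not pass. Their fitted differences were 0.51 for Egr1 (adjusted p = 0.227), 0.49 for Junb (adjusted p = 0.594), -0.19 for Fosb (adjusted p = 0.383), -0.23 for Npas4 (adjusted p = 0.7996) and -0.024 for Nr4a1 (adjusted p = 0.888), and each of these 5 changed sign under at least 1 alternative without being called. Fos and Egr2 were not tested, since they are not classifiable. No member was called without A or without D, only Dusp1 without E or without F, Arc and Dusp1 without C, and Dusp1 and Egr4 without B2. Of all classifiable genes, 10.1% were called without A, 30.7% without D, 29.2% without E, 32.4% without F, 28.9% without C and 36.9% without B2. Scaling the libraries by the median of ratios, which raises A by dividing it by 0.765, left Egr4 called at -2.12, with Dusp1 at 0.55 (adjusted p = 0.0587) and Arc at 0.77 (adjusted p = 0.127).

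Between A and layer 4, where both B1 and B2 had to lie on the same side of A, 4 members were higher in B and none in A, namely Fos, Arc, Egr1 and Dusp1. With the main transcript of Fos in place of its gene value, the count was 3. Of all classifiable genes, 42.6% were higher in B and 20.2% higher in A by the same criterion. Beside these shares stand 3 of the 8 classifiable members higher in B, since Fos is not classifiable. Egr1 was 1 of the 4 members higher in B and the only one after scaling by the median of ratios. Between layer 4 and C, Egr1 and Egr2 were higher in B (7.7% of all classifiable genes) and Dusp1 was higher in C (29.6%). Egr2 is not classifiable, so 1 of the 8 classifiable members was higher in B at this step. Against B1 alone, 8 members lay apart from A and 7 from C on either side, and against B2 alone 6 and 8. This criterion is looser than that for both libraries. Its share over all classifiable genes was not computed, so nothing is read from these counts. Dusp1 no longer lay apart from C under the median of ratios or with mitochondrial genes left out of the scale.

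Within layer 5, Egr4 was higher in C (15.5% of all classifiable genes) and Egr1 higher in D (18.8%), the latter overlapping under both rescalings. From lower layer 5 to layer 6, Egr4 and Dusp1 were higher in D (17.3%) and Egr1 higher in E (27.7%). From layer 6 to layer 6b, Egr1 and Egr4 were higher in E (25% of all classifiable genes) and no member was higher in F (28.7%). With mitochondrial genes left out of the scale, or after correction for GC content, Arc, Npas4 and Nr4a1 were also higher in E than in F. Thus Egr1, whose intervals were the narrowest of the members relative to mean FPKM, lay apart at each of these 5 steps as deposited. The share of all classifiable genes that did so was not computed.

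Between the most superficial and the deepest segment, 6 members were higher in F, Fos, Junb, Arc, Egr1, Nr4a1 and Dusp1, of which 5 are classifiable. Of all classifiable genes, 60.8% were higher in F. Egr4 was the member higher in A, where 24.4% of all classifiable genes were higher. The ratio of F to A was 2.69 for Arc, 2.56 for Fos, 2.36 for Dusp1, 1.69 for Egr1, 1.44 for Junb, 1.13 for Nr4a1 and 0.315 for Egr4. Under the median of ratios Fos, Arc, Egr1 and Dusp1 were still higher in F, while Fosb, Npas4 and Nr4a1 joined Egr4 as higher in A, so the direction of Nr4a1 turned.

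Of the members, 4 were lowest in A, 3 of them classifiable, against 50.7% of all classifiable genes. The highest library was B1 for 5 members, 4 of them classifiable (Junb, Egr4, Npas4 and Nr4a1, against 13.8% of all classifiable genes), E for 2, D for 2 and C for 1. These 5 were thus also the members highest in A, B1 or B2, where 36.3% of all classifiable genes were highest. Without B1, 3 members were highest in A or B2, and under the median of ratios 8 were highest in A, B1 or B2. That scaling divides A by 0.765 and F by 1.14 for all genes alike. After GC correction Npas4 and Nr4a1 were still highest in B1, while Junb was highest in E and Egr4 in C. Shares of all classifiable genes were not computed for these settings. The 13.8% counts genes of any GC content, and the share among genes of like GC content was not computed.

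The 2 litters of layer 4 differed in the same direction for all members. Each of the 10 was lower in B2 than in B1, with a median ratio of B2 to B1 of 0.598 and a median log2 ratio of -0.74. Over all classifiable genes the median ratio was 0.991, and 51.0% of genes were lower in B2. The ratio was 0.418 for Junb, 0.443 for Egr4, 0.537 for Nr4a1, 0.547 for Npas4, 0.584 for Arc, 0.613 for Dusp1 and 0.626 for Fos. It was closer to 1 for Egr2 (0.843), Fosb (0.846) and Egr1 (0.857). With 1 library per litter there is no test of litters, and order of dissection, library preparation and litter cannot be told apart.

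By nonoverlap of the deposited intervals, 7 members were higher in B1, namely Junb, Arc, Egr1, Egr4, Npas4, Nr4a1 and Dusp1, all of them classifiable, and none was higher in B2. Of all classifiable genes, 34.3% were higher in B1 and 32.1% higher in B2. The intervals of Fos, 2.57 to 4.25 FPKM in B1 and 1.56 to 2.70 in B2, overlapped, but those of its main transcript, 1.81 to 2.40 and 1.05 to 1.41 FPKM, did not. The intervals of Fosb and Egr2 overlapped.

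**Figure D3:**
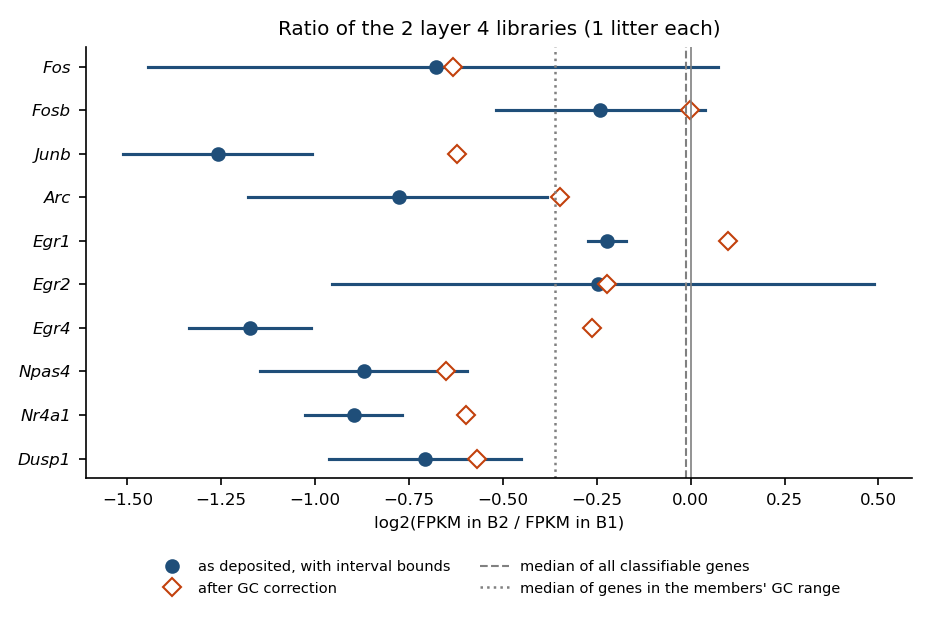
Log2 of FPKM in B2 over FPKM in B1 (x axis) for the 10 genes. Filled points are deposited values with lines from the lower bound of B2 over the upper bound of B1 to the reverse, diamonds are values after GC correction, and vertical lines mark the medians of all classifiable genes and of those in the GC range of the members. All filled points lie left of 0, and the diamonds lie closer to 0.

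GC content moved with this ratio. Across classifiable genes, the Spearman correlation of the log2 ratio with the GC content of the longest transcript was -0.54, a description across genes that share the 2 libraries. The members are GC-rich, with a median of 56.5% against 50.0% for classifiable genes. Among the 3095 classifiable genes whose GC content lay between those of the classifiable members, 54.0% to 68.2%, 66.3% were higher in B1 by nonoverlapping intervals, beside 7 of the 8 classifiable members. Over the 3054 of them above 0 in B1, the median ratio was 0.778 and 81.8% were lower in B2. The plot of the ratio against GC content places the members among genes of like composition. In bins 2 percentage points wide, 5 of the 9 members with a bin of at least 20 genes (Fos, Junb, Npas4, Nr4a1 and Dusp1) lay below the 10th percentile of their bin. Egr4, the most GC-rich at 68.2%, lay beyond these bins, where 49 classifiable genes had 66% GC or more.

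**Figure D4:**
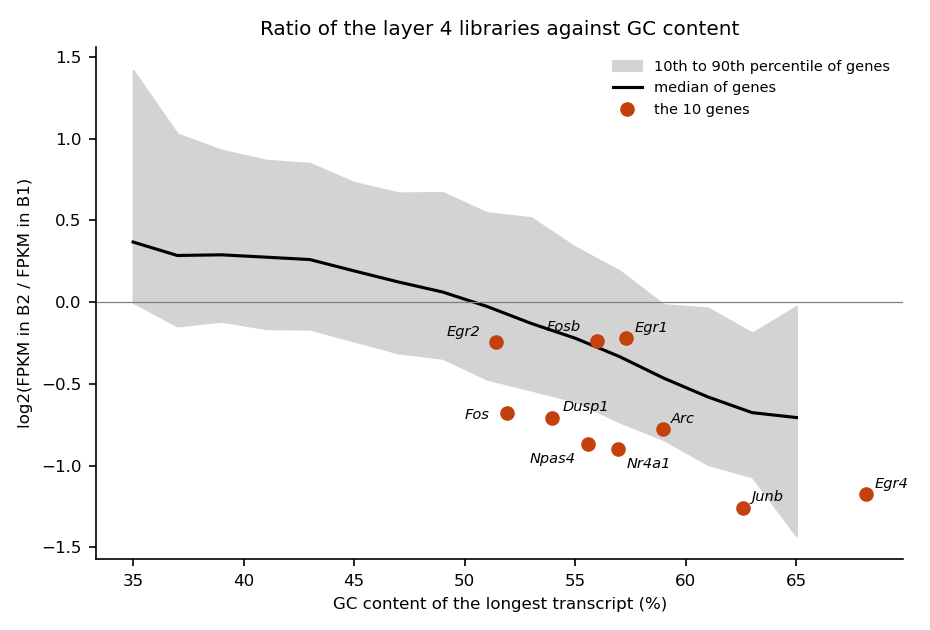
Log2 of FPKM in B2 over FPKM in B1 (y axis) against the GC content of the longest transcript in percent (x axis). The black line and grey band are the median and the 10th to 90th percentiles of classifiable genes in bins of 2 percentage points with at least 20 genes, and orange points are the 10 genes, of which 5 lie under the band.

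The dependence on GC content was then removed in each library by a lowess fit. After this, 9 of the 10 members were still lower in B2, beside 53.1% of all classifiable genes and 9 of 10 astrocyte genes. The median log2 ratio was -0.46 for the members, -0.14 for the astrocyte genes and -0.024 for all classifiable genes. The corrected log2 ratio was -0.65 for Npas4, -0.63 for Fos, -0.62 for Junb, -0.60 for Nr4a1, -0.57 for Dusp1, -0.35 for Arc, -0.26 for Egr4 and -0.22 for Egr2. For Fosb it was -0.00091, and for Egr1 it turned to 0.10. Corrected intervals lay apart with B1 higher for Junb, Egr4, Npas4, Nr4a1 and Dusp1, and with B2 higher for Egr1. Corrected in the same way, 30.2% of all classifiable genes were higher in B1 and 27.9% higher in B2.

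Loci assembled de novo in each library gave a second estimate from the same libraries. The locus that covered at least 50% of the gene was used, in each library that of highest FPKM where more than 1 did. It was lower in B2 for 8 of the 9 members that had such a locus. The share over all de novo loci was not computed. Ratios of B2 to B1 for these 8 ran from 0.346 for Fosb to 0.858 for Egr1. The exception was Nr4a1, whose locus was at 18.5 FPKM in B1 and 27.9 in B2. That locus was highest in A, at 63.5 FPKM (49.1 to 77.9), and measured 11.1 to 11.8 in C, D, E and F. The Npas4 locus was highest in E at 14.0 FPKM and lowest in D at 5.65, beside 10.3 in B1 and 7.01 in B2. In B1 it spanned 5728 bases against 5617 for the gene, which measured 2.65 FPKM there, so the levels differed at similar extent. For both loci segments thus differed more than litters, unlike for the gene values. The Junb locus was still highest in B1 (13.1 FPKM) and lowest in B2 (5.59). Loci and genes did not match in extent, with 20608 bases for the Nr4a1 locus in B1 against 7940 for the gene, 6241 against 2930 for Dusp1 in both libraries, and 7294 in B1 and 5323 in B2 for Fosb. Mean internal insert sizes, as stated in the labels, were 239 nt in B1 and 193 nt in B2, and 164 to 208 nt in the other libraries. Their part in the ratio was not tested. The summed FPKM of 10 pan-neuronal genes had a B2 to B1 ratio of 0.967, that of 12 oligodendrocyte genes 1.02, that of 10 astrocyte genes 0.995, that of 5 blood genes 1.43 and that of 5 heat shock genes 1.21, beside 0.683 for the 10 members. The 5 blood genes had 101 FPKM in B1 and 145 in B2.

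Most other genes of the rapid response were lower in B2 too. Of 27 further rapid activity genes, 26 were listed and 18 classifiable, with a median GC content of 54.0%. Of these 18, 16 were lower in B2, beside 51.0% of all classifiable genes and 81.8% of those in the GC range of the members. Their median ratio was 0.668. After GC correction 14 of the 18 were lower, beside 53.1% of all classifiable genes, with a median ratio of 0.813. The most abundant were Jund, a Jun protein, Egr3, of the Egr family, and Ier5, an early response gene. Jund measured 139 FPKM in B1 and 69.4 in B2, Egr3 67.2 and 30.2, and Ier5 44.8 and 14.5. After GC correction the log2 ratio was -0.14 for Jund, -1.14 for Egr3 and -1.57 for Ier5. Egr3 and Ier5 thus kept differences beyond those of all members, while that of Jund became smaller.

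In the depth trend, 8 of the 18 were called, each with F fitted above A, beside the 43.5% of all classifiable genes, of whose called genes 81.5% had F above A. The smallest p-values were those of Trib1, a pseudokinase, which rose by 1.72 from A to F (adjusted p = 0.00455, limma), Sik1, a kinase that restrains CREB coactivators, which rose by 1.63 (adjusted p = 0.00882, and 0.0601 without F), and Dusp6, a MAP kinase phosphatase. Trib1 measured 2.03 FPKM in A and 7.19 in E. Dusp6 was highest in D at 20.5 FPKM and lower at both ends, 7.32 in A and 10.4 in F, and its fitted change of 0.33 (adjusted p = 0.0109) turned to -0.18 under the median of ratios and to -0.28 after GC correction. Jund, Egr3 and Ier5 did not pass, with adjusted p from 0.167 to 0.471. Without A, 2 of the 18 were called, beside 10.1% of all classifiable genes.

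Delayed activity genes, which encode secreted peptides, synaptic proteins and repressors made after the first wave, showed a smaller litter difference as deposited. Of 15 genes, 13 were classifiable, and 8 of them were lower in B2, beside 51.0% of all classifiable genes, with a median ratio of 0.901. After GC correction 12 of the 13 were lower, with a median ratio of 0.818, beside 53.1% of all classifiable genes and 9 of 10 astrocyte genes. Nrn1, which encodes neuritin, and the granule protein genes Vgf and Scg2 were the most abundant. Nrn1 measured 180 FPKM in B1 and 191 in B2, Vgf 207 and 103, and Scg2 57.6 and 51.9. After GC correction the log2 ratio was -0.30 for Vgf, -0.096 for Nrn1 and -0.29 for Scg2.

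Of these 13, 7 were called by the depth trend, 5 with F above A and 2 below, which is 53.8% beside 43.5% of all classifiable genes. Crem, whose products include the CREB repressor ICER, changed by 0.81 from A to F (adjusted p = 0.00670), with 5.37 FPKM in A and 14.3 in E. After GC correction its fitted change was -0.031. Pcsk1, a prohormone convertase, had a fitted difference of 1.65 (adjusted p = 0.0119) and was highest in C at 13.9 FPKM. The difference of Scg2 was 0.85 (adjusted p = 0.0178), with 98.6 FPKM in D, its highest library. Nrn1 was at -0.54 (adjusted p = 0.0116, and 0.117 without F), with 101 FPKM in A, 184 in C and 77.2 in F. After GC correction Pcsk1 was at 0.77 (adjusted p = 0.116) and Scg2 at 0.13 (adjusted p = 0.445), and Scg2 was at 0.34 (adjusted p = 0.182) under the median of ratios. Pcsk1, Scg2 and Crem also missed the threshold without A, with adjusted p of 0.292 for Pcsk1, 0.0601 for Scg2 and 0.105 for Crem, and Scg2 without D or E as well (0.0593 and 0.0587). Vgf did not pass (-0.44, adjusted p = 0.411). The count was 3 of 13 after GC correction, 4 under the median of ratios, 4 without E and 1 without A. Of all classifiable genes, 29.8%, 33.0%, 29.2% and 10.1% were called in these fits.

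Of 20 regulators, which act upstream of the members or with their proteins, all were classifiable. In B2 12 of them were lower, beside 51.0% of all classifiable genes, with a median ratio of 0.875. After GC correction 15 were lower, beside 53.1%, with a median ratio of 0.897. The depth trend called 10 of them, 9 with F above A and 1 below, which is 50% beside 43.5% of all classifiable genes, of whose called genes 81.5% had F above A. The one that fell was Mef2c, a MEF2 factor and the most abundant of the list, from 251 FPKM in A to 64.6 in F, by 1.80 (adjusted p = 0.00498, limma). Mef2a, of the same family, rose by 1.73 (adjusted p = 0.00592), from 7.42 FPKM in A to 31.6 in F. Nab1, a corepressor of Egr proteins, rose by 1.55 (adjusted p = 0.00495). The fitted difference of Arnt2, a partner of Npas4 that was highest in E at 65.8 FPKM, was 0.76 (adjusted p = 0.0194). Mef2a was at 0.85 after GC correction (adjusted p = 0.0651) and missed the threshold without A (adjusted p = 0.0643). Arnt2 missed it under the median of ratios (0.25, adjusted p = 0.162), after GC correction (0.39, adjusted p = 0.0559) and without A, C or E (adjusted p from 0.0546 to 0.253). Nab1 was at 1.71 FPKM in A and 5.50 in F, where the sum of oligodendrocyte genes was highest, and Arnt2 at 31.0 and 55.9. The part of that cell type in these differences was not tested.

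The mean of the standardised profiles of the 8 classifiable members was most like those of ENSMUSG00000031811 (r = 0.985), Pgs1 (r = 0.984), Klhl36 (r = 0.981) and ENSMUSG00000067584 (r = 0.976), each over 7 libraries. These 4 were higher in B1 than in B2, with Pgs1 at 28.0 and 21.5 FPKM and Klhl36 at 2.79 and 1.62. That follows from how they were picked, since all 8 members in the profile were higher in B1 too.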

How the data were processed

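Poly(A) RNA of the 7 S1 libraries had been sequenced from both ends of each fragment. As the labels and the study's methods state, the authors mapped reads to mm9 with TopHat 1.0.13 and estimated expression with Cufflinks 0.8.3. The authors deposited FPKM per Ensembl release 57 gene and transcript and per de novo locus, with 95% intervals, and for transcripts the estimated read coverage and the fraction of the fragments of a gene. The preparation described marks no strand, so reads of antisense transcripts cannot be told apart. The coverage was used here to estimate fragments, with 2 ends of 50 nt each (F has some longer reads, so its estimate is an upper value). Genes not listed in a library were set to 0.

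Symbols and GC content came by identifier from GENCODE M21, with a GC value for 94.7% of classifiable genes. The trend was fitted on log2(FPKM + 0.1) with limma 3.58.1 in R 4.3.3, with 4 residual degrees of freedom. On simulated data of 11409 genes, calls fell on 42% of genes given a 2-fold change from A to F. They fell on 80% of those given a 16-fold change, and on 6 unchanged genes. The simulated noise was independent between genes and libraries, with spreads taken from B1 and B2. Shifts shared by the genes of a library were left out, so the 6 calls give no rate of false calls in the real data. GC correction used a lowess fit (span 0.3, statsmodels 0.14.6) of log2 ratios on GC content. Replicate n = 2 for layer 4 counts pools of 4 mice. The members and gene lists were chosen with earlier results of these data known. Genes were named by rule: all members, the 3 most abundant and the 3 of smallest trend p in the lists of rapid, delayed and regulator genes, and those most similar in pattern. Of the genes that rule takes, 2 are not reported here. From each marker list the sum is given. Those not given above showed these ranges: 10 interneuron genes 762 to 1138 FPKM, 10 microglia genes 95.8 to 184 and 10 endothelium genes 76.1 to 107. The alternatives, 92 planned and 12 added after the data were seen, varied pseudocount, filter, scale, GC content, interval width, libraries and the Fos transcript.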

Additional observations from a re-analysis of the deposited data

How the results depend on the processing

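All 10 genes being lower in B2 held under both rescalings, and the median log2 ratio stayed between -0.82 and -0.46 under every alternative. The ratio of Egr1 turned to 0.10 after GC correction. The trend count of 3 members was 1 with no filter and 1 under the median of ratios, and ran from 0 to 3 with 1 library left out (0 without A and 0 without D). Of all genes tested, 43.5% were called in the main fit, 25.4% with no filter, 33.0% under the median of ratios and 29.8% after GC correction. With a filter on a mean of 0.1 FPKM that share was 34.5%. With 1 library left out it ran from 10.1% (without A) to 57.9% (without B1), and was 30.7% without D. The count of 8 among 18 other rapid genes was 13 with a filter on a mean of 0.1 FPKM, which also admits genes that are not classifiable. Among the 18 it ran from 2 to 12 with 1 library left out. The count of 7 delayed genes was 4 under the median of ratios and 3 after GC correction, and ran from 1 to 7 with 1 library left out. Fitted changes from A to F that turned in a called gene were those of Jund (0.14 after GC correction), Dusp6 (-0.18 under the median of ratios, -0.28 after GC correction) and Crem (-0.031 after GC correction), while 5 members turned without a call in either fit, among them Egr1 (-0.0033) and Junb (-0.011) under the median of ratios. Members with intervals apart numbered 1 in place of 4 for A and B under the median of ratios and with intervals widened 2 times, and 6 to 8 with 1 library of B left out. For B and C they were 1 in place of 3 with widened intervals, and 7 to 8 with 1 library of B left out. For C and D they were 1 in place of 2 under both rescalings and 0 with widened intervals. For E and F they were 5 in place of 2 without mitochondrial genes in the scale or after GC correction, and 1 with widened intervals. For A and F they were 4 in place of 7 with widened intervals. Members highest in A or B were 8 in place of 5 under the median of ratios, and 3 to 5 with 1 library of B left out. The cause of these changes was not tested. Shares of all classifiable genes were not computed for the changed counts of intervals apart or of highest libraries. Fits with 1 library left out also have fewer degrees of freedom. Their calls ran from 1147 genes without A to 6611 without B1, against 4968 in the main fit. In tests without the 387 genes at 0 in a library, 3 members were called and shares of genes with intervals apart moved by at most 1.22 percentage points. No paired analysis was possible because the segments share only replicate number 1, which each has by being its only or first library, and so give fewer than 2 pairs.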
